A study of Mus musculus with 14 samples.

Results

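The 7 genes described here, Klf4, Mta2, Csf1r, Syt1, Src, Efnb1 and Ldha, are published target genes of miR-34a that have a named probe on the spotted cDNA arrays of this study. They were picked by name and by probe, each with 1 probe, from 1378 genes with a symbol on the array. The arrays measured brain and thymus RNA of male mice of genotype mir-34a minus, on the C57BL/6 background and 17 weeks of age. Brain RNA came from 3 mutants (mice 1 to 3) and thymus RNA from 4 mutants (mice 1 to 4). Mice 1 to 3 gave both organs. Each mutant RNA was hybridised on 2 arrays with the dyes exchanged, in competition with a pool of RNA of the same organ from control males of the same background and age. This gave 6 brain arrays and 8 thymus arrays. No control mouse was hybridised alone, so the pool counts as 1 control sample and the spread among controls is left out of every test. The labels list 4 animals per pool, while the labelling protocol speaks of 6. Thymus replicate 1 carries brain as its tissue in 1 label but thymus in its title and its pool, and it was taken as thymus. How the allele was made is not given in the sources used here.

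miR-34a is a microRNA whose gene is activated by the tumour suppressor p53. Like other microRNAs it guides a silencing complex to mRNAs that pair with its seed, a short stretch near its 5′ end, and lowers their stability or translation. A target that is controlled through its mRNA would stand higher in cells without the microRNA, while a change in translation alone does not appear on an expression array. The array has no probe named Mir34a, and whether the microRNA was absent could therefore not be read from it.

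The mature miR-34a-5p is shown with its relatives of the same seed, since these are encoded at other loci. Of 1738 mature mouse microRNAs in the RefSeq table (GRCm38.p6), 4 have this seed. A further member of the family, miR-34c-5p, has no entry in that table, so it is not in this count and its sequence is not shown. The miR-34a sequence lies at chr4:150068473-150068494 on the plus strand, miR-34b-5p at chr9:51103610-51103632 on the minus strand, miR-449c-5p at chr13:113036008-113036028 and miR-449a-5p at chr13:113037549-113037570, both on the plus strand. Capitals mark the seed, bases 2 to 8 from the 5′ end. In the hairpin of Mir34a (chr4:150068454-150068555, plus strand) capitals mark the mature 5p arm.
mmu-miR-34a-5p: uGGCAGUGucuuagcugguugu
mmu-miR-34b-5p: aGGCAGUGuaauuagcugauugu
mmu-miR-449a-5p: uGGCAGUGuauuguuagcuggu
mmu-miR-449c-5p: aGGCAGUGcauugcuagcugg
Mir34a hairpin: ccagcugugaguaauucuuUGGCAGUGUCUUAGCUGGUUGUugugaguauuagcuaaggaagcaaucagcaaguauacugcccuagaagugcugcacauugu
The DNA 7-mer complementary to the seed reads CACTGCC. Target sites in the mRNAs of the 7 genes were not analysed here.

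Both organs gave weak signals. Single brain arrays had 56.2% to 94.4% of probes detected and 0.812% to 10.7% of spots flagged, against 7.75% to 84.9% and 9.32% to 72.4% on single thymus arrays. A probe was called detected on an array where it stood at least 2 background SDs above the local background in at least 1 dye. Of the organ markers with an intensity, 3 of 5 neuronal genes were higher in brain and 3 of 3 thymocyte genes higher in thymus, while 2 of 2 genes of thymic epithelium (Epcam and Ly75) were higher in brain. Only 1 neuronal and 1 thymocyte gene passed the test: log2 spot intensity of Stmn2, a neuronal microtubule regulator, was 2.08 higher in brain (limma adjusted p = 0.00279) and that of Satb1, a chromatin organiser of T-cell precursors, 1.40 higher in thymus (limma adjusted p = 0.0313). In whole organs, fewer cells of a type and less RNA per cell cannot be told apart. The number of mice limits the precision of every value.

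All 7 target genes could be tested in brain, and 5 of them were detected on every brain array. None of the 7 was detected on every thymus array, and 3 (Mta2, Csf1r and Ldha) met the filter for testing there. Mutant signal stood above local background by a median factor of 4.40 for Syt1, 3.66 for Ldha and 2.23 for Src over the brain arrays. The other 4 genes had median factors of 1.58 (Mta2) to 1.97 (Efnb1) in brain. In thymus the median factors ran from 1.16 (Efnb1) to 2.06 (Ldha). These factors describe how far each spot could be measured and are not levels to compare between genes.

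**Figure D1:**
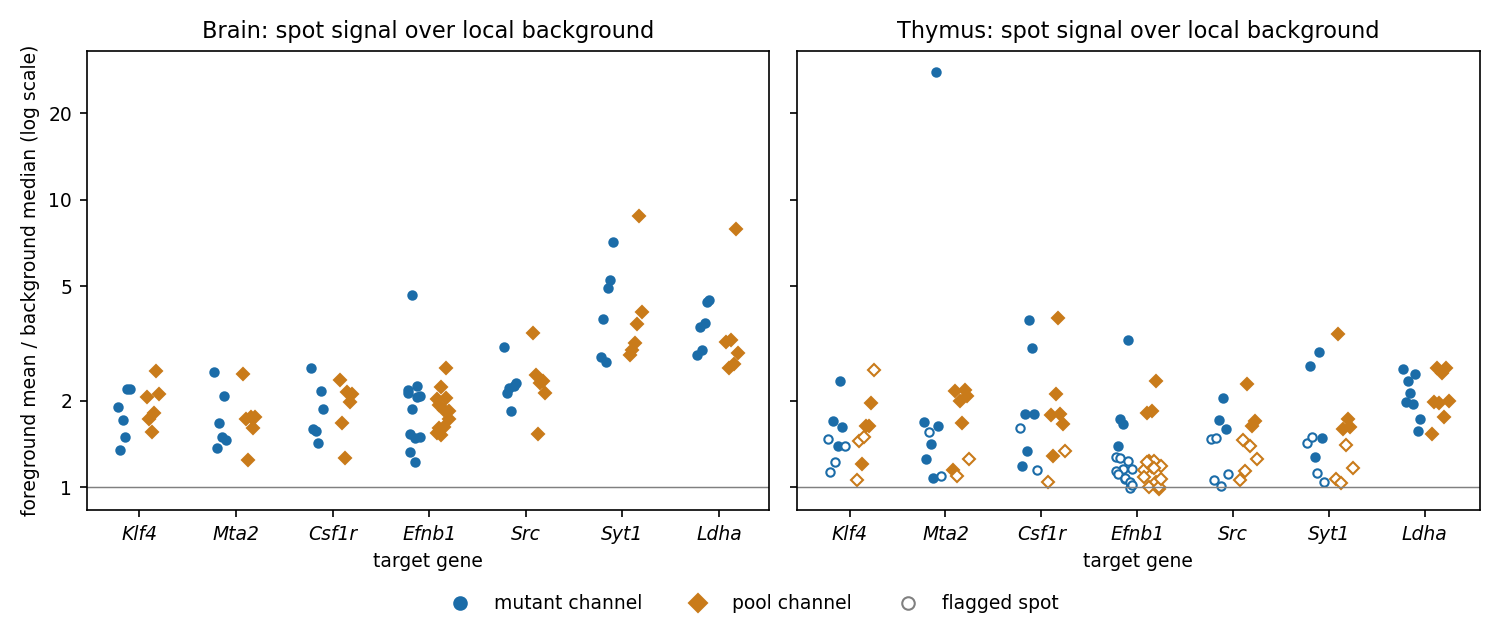
Foreground mean over local background median (log axis) for each spot of the 7 target genes, in the mutant channel (circles) and the pool channel (diamonds), by organ. Open symbols are flagged spots. Syt1 and Ldha stand highest above background in brain, and the Mta2 spot at 27.9 in the thymus panel belongs to thymus replicate 6.

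In brain, none of the 7 target genes passed the test for a change between mutants and pool. Their mean log2 ratios of mutant over pool ran from -0.12 (Klf4) to 0.17 (Efnb1), with a median of 0.02, and 5 of 7 were above 0. Over all 17586 probes tested in brain the median was 0.00 and 50.5% were above 0. By limma with Benjamini-Hochberg adjustment, 0 of the 7 and 0 of the 17586 probes (0% called) passed the threshold, an adjusted p of 0.05. Before adjustment, 0 of the 7 and 785 of all probes had a p under 0.05. The 95% confidence intervals of all 7 genes lay within a 1.5-fold change either way, as did those of 97.1% of all probes. This bound holds for ratios that the offset of the background correction draws toward 0, and it leaves out the spread among control mice. Without the offset, a setting chosen after seeing the data, the intervals of 4 of the 7 lay within 1.5-fold, and those of Klf4 (-0.67 to 0.06), Mta2 (-0.32 to 0.66) and Efnb1 (-0.02 to 0.59) on the log2 scale did not. A probe had 1 sign in all 3 mice in 27.9% of probes with 3 values, and 3 of the 7 genes (Klf4, Efnb1 and Ldha) did. With foreground medians in place of means, none of the 7 kept 1 sign in all 3 mice, against 27.8% of probes that did.

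Klf4 is a zinc-finger transcription factor of stem cells and differentiating epithelia. Its brain log2 ratios were -0.22, -0.09 and -0.04 in mice 1, 2 and 3, all below 0. With foreground medians they were -0.12, -0.17 and 0.06, so mouse 3 lay above 0. The mean of -0.12 ± 0.09 (SD, n = 3), a 0.923-fold level with a 95% interval of 0.832 to 1.02, had a limma adjusted p = 0.846. By array the values ran from -0.34 in replicate 1 to 0.06 in replicate 4, the only one of 6 arrays above 0. Without the offset of the background correction the mean was -0.30 (limma adjusted p = 0.857). In thymus Klf4 was detected on 2 of 8 arrays and not tested. The 4 thymus arrays with a value gave 0.10, 0.16, -0.03 and -0.03 in replicates 3, 5, 6 and 7, on both sides of 0.

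Mta2 is a subunit of the NuRD complex, which joins chromatin remodelling with histone deacetylation. Its brain log2 ratios of -0.16, 0.17 and 0.08 in mice 1, 2 and 3 spanned 0, with a mean of 0.03 ± 0.17 (SD, n = 3; limma adjusted p = 0.951). In thymus it had the highest mean of the 3 genes tested, 0.77, but this rested on 1 array. Both arrays gave a value only for mouse 1 (-0.07) and mouse 3 (1.61), so n = 2, the 95% interval ran from -0.18 to 1.71 and the limma adjusted p was 0.853. The arrays of mouse 3 stood apart from each other, with -0.56 in replicate 5 and 3.78 in replicate 6. The other 4 arrays lay between -0.31 and 0.16.

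The Mta2 spot of thymus replicate 6 was uneven. In Cy3, the dye of the mutant on that array, its foreground mean was 1758 and its foreground median 200, over a background of 63, whereas Cy5 had 313 and 236. With foreground medians in place of means, that array gave 0.58, mouse 3 gave -0.17 and the thymus mean of Mta2 was -0.05 (limma adjusted p = 0.959). Without replicate 6, Mta2 was detected on 3 of 7 thymus arrays and fell below the filter for testing. Its difference between organs, brain minus thymus, was -0.74 (95% interval -1.72 to 0.25, limma adjusted p = 0.716) with means and 0.08 with medians.

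**Figure D2:**
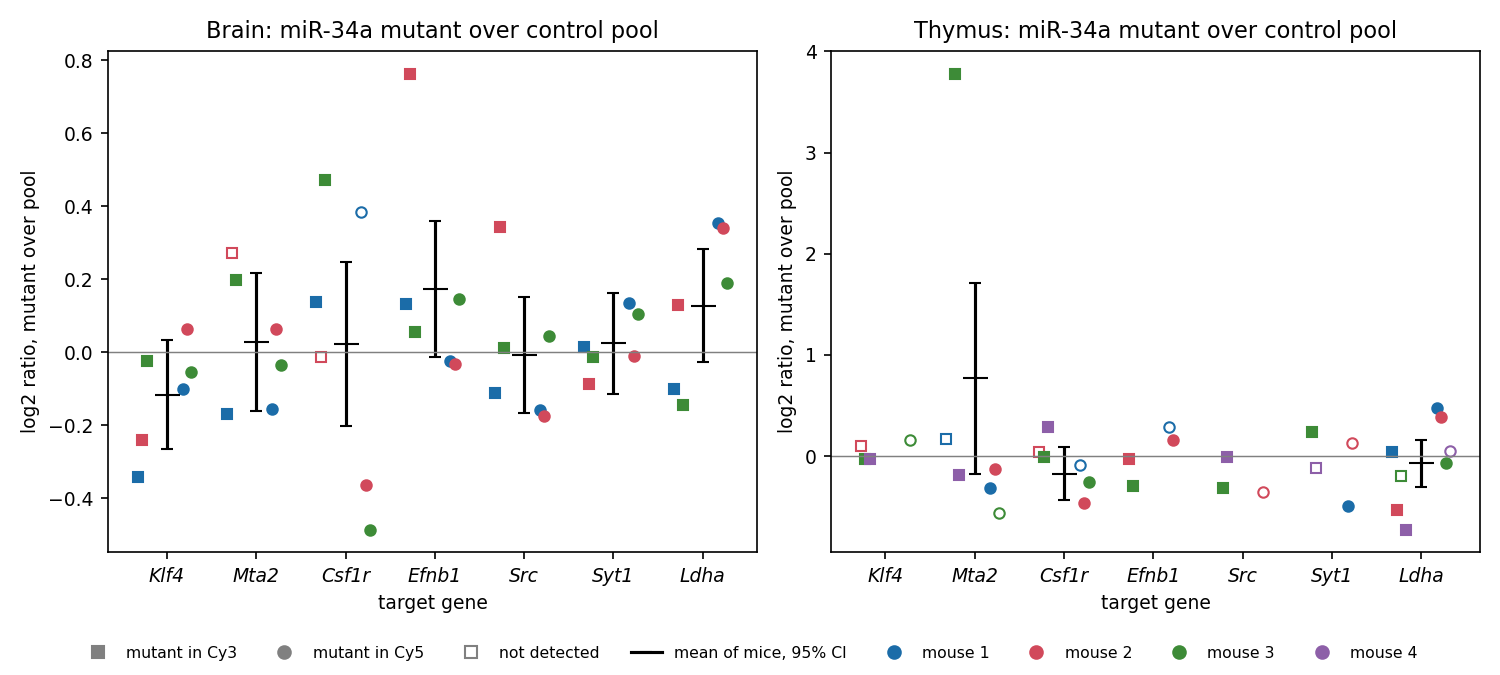
Log2 ratio of mutant over control pool on every array with a value, for brain (left) and thymus (right), with a different vertical scale in each. Colours are mice, squares are arrays with the mutant in Cy3, circles those with the mutant in Cy5, open symbols are probes not detected on that array, and black bars give the mean of mice with its 95% confidence interval where tested. The Mta2 value of 3.78 in thymus and the Efnb1 value of 0.76 in brain stand apart from the other arrays of their gene.

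Csf1r is the receptor for CSF-1 on macrophages and microglia and supports their survival. Its brain log2 ratios were 0.26, -0.19 and -0.01 in mice 1, 2 and 3, the widest spread among mice of the 7 genes in brain (SD 0.23). The mean was 0.02 (95% interval -0.20 to 0.25, limma adjusted p = 0.969). The dye-swapped arrays of mouse 3 gave 0.47 and -0.49, so its value near 0 is the mean of a high and a low array. In thymus, mice 2 and 3 gave -0.21 and -0.14, and their mean of -0.17 ± 0.05 (SD, n = 2) had a limma adjusted p = 0.853. Both mice were below 0, but the interval, -0.43 to 0.09, holds 0, and 2 of the 6 thymus arrays with a value were above 0. The mean was -0.02 without thymus replicate 8, where replicate 7 (0.28) stands for mouse 4. With foreground medians mouse 3 was at 0.06. Csf1r was detected on 4 of 8 thymus arrays, among them replicate 5, where its spot was uneven. With foreground medians, or without replicate 6, it did not meet the filter for testing in thymus.

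Efnb1 is a membrane-bound ephrin, a ligand of Eph receptors in cell-to-cell guidance, and was spotted in duplicate. It had the highest brain mean of the 7 genes. Its log2 ratios were 0.05, 0.37 and 0.10 in mice 1, 2 and 3, all above 0, with a mean of 0.17 ± 0.17 (SD, n = 3). The change was 1.13-fold with a 95% interval of 0.990 to 1.28 and a limma adjusted p = 0.846. Mouse 2 was the highest through 1 array: replicate 3 gave 0.76, while the other 5 arrays lay between -0.03 and 0.15. On that array the second of the duplicate spots had a Cy3 foreground mean of 392 against a median of 128, and the first had 169 against 158. With foreground medians the array gave -0.17 and the brain mean was -0.03 (limma adjusted p = 0.955). Without mouse 2 the mean was 0.08. In thymus Efnb1 was detected on 3 of 8 arrays and not tested, and its values there were 0.29, -0.03, 0.16 and -0.29 in replicates 2, 3, 4 and 6.

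Src is a non-receptor tyrosine kinase that acts below growth factor receptors and integrins. Its brain log2 ratios of -0.14, 0.08 and 0.03 in mice 1, 2 and 3 lay on both sides of 0. The mean was -0.01 ± 0.11 (SD, n = 3), a 0.995-fold level with a 95% interval of 0.891 to 1.11 (limma adjusted p = 0.985). This was the brain value nearest to 0 among the 7 genes. In thymus Src was detected on 2 of 8 arrays and not tested. Its 3 arrays with a value gave -0.36, -0.32 and -0.01 in replicates 4, 6 and 7, each from a different mouse.

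Syt1 is the calcium sensor that triggers fusion of synaptic vesicles. It gave the closest agreement among brain mice, with log2 ratios of 0.07, -0.05 and 0.05 in mice 1, 2 and 3. The mean was 0.02 ± 0.06 (SD, n = 3), or 1.02-fold with a 95% interval of 0.924 to 1.12 (limma adjusted p = 0.944). This is the narrowest interval of the 7 genes. In thymus Syt1 was detected on 2 of 8 arrays and not tested, and replicates 2, 4, 6 and 7 gave -0.49, 0.13, 0.24 and -0.12.

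Ldha makes the A subunit of lactate dehydrogenase, which turns pyruvate into lactate at the end of glycolysis. Its brain log2 ratios were 0.13, 0.23 and 0.02 in mice 1, 2 and 3, all above 0. The mean of 0.13 ± 0.11 (SD, n = 3) had a 95% interval of -0.03 to 0.28 and a limma adjusted p = 0.846. In thymus it was the only one of the 7 with a value in all 4 mice, 0.26, -0.07, -0.13 and -0.34 in mice 1 to 4, so mouse 1 was above 0 and the other 3 below. The thymus mean was -0.07 ± 0.25 (SD, n = 4; limma adjusted p = 0.918), and 0.02 without mouse 4. The difference between organs was 0.20 (95% interval -0.10 to 0.50, limma adjusted p = 0.716).

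Over the 3 target genes tested in thymus the median log2 ratio was -0.07, beside 0.00 over all 5321 probes tested there. None of the 3 passed by limma, and 0% of the 5321 probes did, of which 267 had an unadjusted p under 0.05. The intervals of Csf1r and Ldha lay within a 1.5-fold change either way and that of Mta2 did not, against 93.9% of all probes within it. As in brain, this bound holds for ratios that the offset draws toward 0. Without the offset, the thymus means of Csf1r, Ldha and Mta2 were -0.27, -0.06 and 0.64. Their intervals under that setting are not given here. For the difference in ratio between organs, 0 of 3 target genes and 0 of 5160 probes (0%) passed by limma, with 355 probes at an unadjusted p under 0.05. The test with the mouse as a block, which rests on animals with values in both organs, called 0 of 4765 probes. It gave -0.81 for Mta2 (mice 1 and 3, at -0.09 and -1.53), 0.08 for Csf1r (mice 2 and 3) and 0.11 for Ldha (mice 1 to 3).

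Because each mouse was measured in both dye orientations, the 7 genes could be compared with the mutant in Cy5 and with the mutant in Cy3. This comparison was chosen after seeing the data. Ldha was higher with the mutant in Cy5 in all 3 brain mice, by 0.46, 0.21 and 0.33 on the log2 scale, and in all 4 thymus mice, by 0.44, 0.92, 0.13 and 0.78. The same direction in all mice was seen for 18.4% of probes in brain and 15.9% in thymus. In brain the mean orientation difference of Ldha was 0.33 (95% interval -0.06 to 0.72, limma adjusted p = 0.439), larger than its mutant-over-pool mean of 0.13. In thymus it was 0.57 (95% interval 0.17 to 0.96, limma adjusted p = 0.323).

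Syt1 also kept 1 direction in brain, with differences of 0.12, 0.08 and 0.12, and a mean of 0.11 (limma adjusted p = 0.807). No orientation difference of the 7 genes passed the threshold. In brain 2 of 17586 probes (0.0114%) did, in thymus 0 of 5321. With the mutant in Cy3 only, the brain mean of Ldha was -0.04, and with the mutant in Cy5 only it was 0.29. Averaging the 2 orientations cancels a dye effect that acts alike on both arrays of a mouse.

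**Figure D3:**
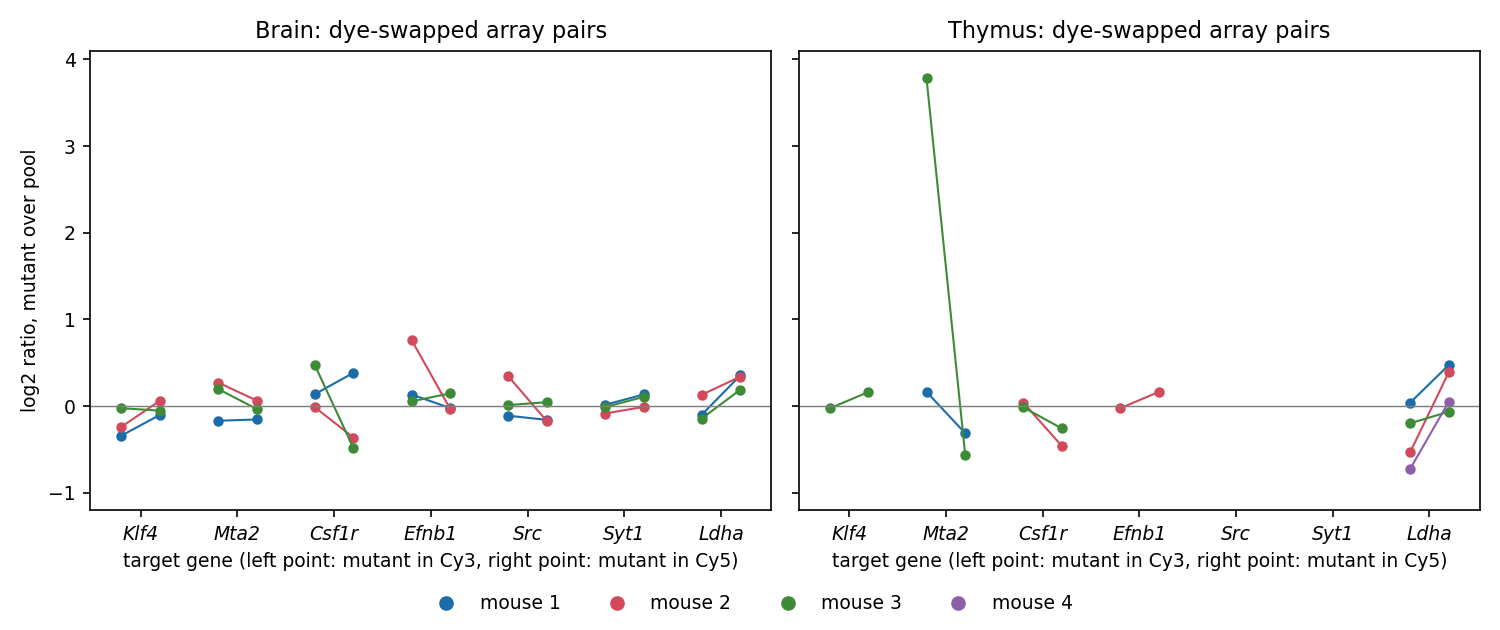
Log2 ratio of mutant over pool on the dye-swapped arrays of each mouse, joined by a line (left point, mutant in Cy3; right point, mutant in Cy5), for mice with a value on both arrays. The lines of Ldha rise from left to right in all 3 brain mice and all 4 thymus mice, and those of the other genes with lines from at least 2 mice do so only for Syt1 in brain.

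Spot intensity, the mean log2 signal of mutant and pool after quantile normalisation between arrays, shows where each target gene was measured at a higher level. Each intensity is read within its own probe. Flagged spots, more frequent on most thymus arrays than on brain arrays, were left out of it. Organ and hybridisation series cannot be told apart here. Of 18600 probes with values, 210 (1.13%) differed between organs by limma at an adjusted p of 0.05, and none of the 7 genes was among them. Higher intensity in brain passed for 1.08% of probes and higher intensity in thymus for 0.0538%. The count depended on single animals: it was 61, 11, 10 and 102 without mice 1, 2, 3 and 4, and 3 with the mouse as a block. Without regard to the test, 1 of the 7 genes (Mta2) had organ ranges that did not overlap, against 18.5% of all probes, 12.2% with brain higher and 6.28% with thymus higher. With foreground medians the Mta2 ranges did overlap.

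Syt1 had log2 intensities of 7.62, 8.45 and 8.52 in the brains of mice 1, 2 and 3 and of 8.37, 6.29, 6.64 and 6.46 in the thymus of mice 1 to 4. The brain values were higher except against the thymus of mouse 1, which lay among them. The difference was 1.26 (95% interval 0.16 to 2.35, limma adjusted p = 0.316), and 2.02 without mouse 1 (limma adjusted p = 0.0220). Without mouse 1, 61 of 17601 probes passed. The thymus value of mouse 1 came from replicate 2 alone, since the spot was flagged on replicate 1. That spot was uneven, with a foreground mean of 261 against a median of 117 in Cy5 and 188 against 127 in Cy3.

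With foreground medians, a setting chosen after seeing the data, the thymus of mouse 1 fell to 6.81 and the organs no longer overlapped for Syt1. Brain values were then 7.63, 8.38 and 8.37 and the other thymus values 6.25, 6.59 and 6.46. Brain exceeded thymus by 1.60 (95% interval 1.12 to 2.08, limma adjusted p = 0.00690), and 316 of 18600 probes passed under this setting. None of the other 6 target genes passed under it, with adjusted p from 0.235 to 0.934. Efnb1 also lost its overlap under this setting, but with thymus higher. Its values in mice 1, 2 and 3 were 6.43, 6.34 and 6.41 in brain and 6.83, 6.67 and 7.02 in thymus. Its difference was -0.45 (limma adjusted p = 0.251). On every thymus array with an Efnb1 value, only 1 of the duplicate spots was kept, since the other was flagged. With flagged spots and foreground means kept, also chosen after seeing the data, the Efnb1 difference turned to 0.23, with brain higher (limma adjusted p = 0.497). The share of all probes without overlap under foreground medians was not computed, and with foreground means it was 18.5%. The lost overlap of Syt1 and Efnb1 is therefore given as a description only.

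**Figure D4:**
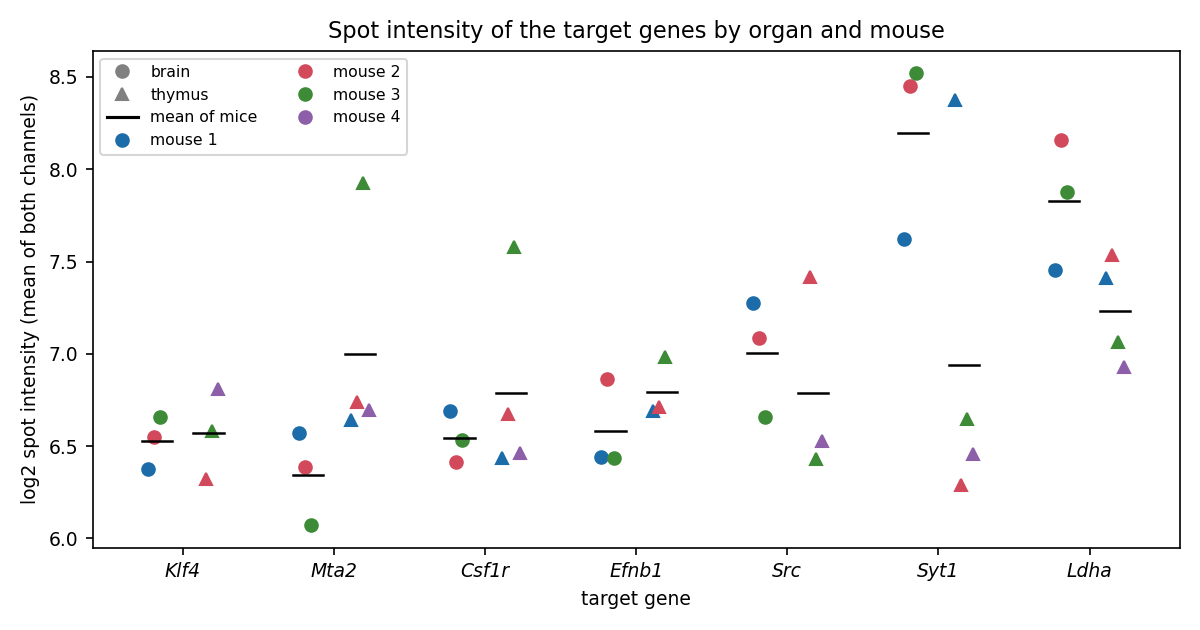
Log2 spot intensity, mean of both channels, of the 7 target genes in the brain (circles) and thymus (triangles) of each mouse, coloured by mouse, with the mean of mice as a black line. For Syt1 the thymus of mouse 1 (8.37) lies among the brain values, and for Mta2 and Csf1r the thymus of mouse 3 lies above all others.

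Ldha had log2 intensities of 7.45, 8.16 and 7.88 in the 3 brains and of 7.41, 7.54, 7.06 and 6.93 in the 4 thymus samples. The ranges overlapped through the brain of mouse 1. Its difference of 0.59 (95% interval 0.10 to 1.09) had a limma adjusted p = 0.297. With flagged spots kept, a setting chosen after seeing the data, the Ldha difference was 0.27 (limma adjusted p = 0.506). Mta2 was lower in brain, with 6.57, 6.39 and 6.07 against 6.64, 6.74, 7.93 and 6.69 in thymus, and the ranges did not overlap. The difference was -0.66 (limma adjusted p = 0.423), and -0.21 without mouse 3, whose thymus value includes the uneven spot of replicate 6. With foreground medians the Mta2 ranges overlapped, the thymus of mouse 3 at 6.48 lying below the brain of mouse 1 at 6.56. The difference was then -0.35 (limma adjusted p = 0.375).

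The remaining 4 genes had overlapping ranges with foreground means. The difference of brain minus thymus was -0.24 for Csf1r (limma adjusted p = 0.731), where the thymus of mouse 3 at 7.58 lay above the other 3 at 6.43 to 6.67. For Src it was 0.21 (limma adjusted p = 0.779), for Efnb1 -0.22 (limma adjusted p = 0.643) and for Klf4 -0.04 (limma adjusted p = 0.934). In thymus these last 3 genes had a value in 3 of 4 mice. With flagged spots kept, the Efnb1 difference turned to 0.23.

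The uneven spots were few. Over the 83 spots of the 7 genes that were not flagged, 4 had a foreground mean above 1.5 times the foreground median in either dye. These were Mta2 on thymus replicate 6 (8.79 times in Cy3), the second Efnb1 spot on brain replicate 3 (3.06 times in Cy3), Csf1r on thymus replicate 5 (2.95 times in Cy5) and Syt1 on thymus replicate 2 (2.23 times in Cy5). In the other spots the mean was 0.939 to 1.35 times the median. What made these spots uneven was not tested.

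Genes of the pathways around the 7 were thinly covered by named probes, and none of those tested passed the threshold in brain or thymus. Of 20160 probes, 1451 could be given a gene name, so unnamed probes may measure further list members. Of 65 listed other targets of the miR-34 family, 2 (Mdm4 and Hnf4a) had a named probe and 1 was tested. This was Mdm4, an inhibitor of p53, with a mean log2 ratio of -0.04 ± 0.06 (SD, n = 3) in brain and 0.01 ± 0.16 (SD, n = 4) in thymus. Among the Krüppel-like factors, Klf6 gave 0.12 in brain. Of the NuRD complex, Rbbp7 and Mbd2 gave 0.02 and -0.09 in brain.

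Of the macrophage and CSF-1 list, 5 of 27 genes were tested in brain, 3 above 0 and 2 below. Fcgr2b, an inhibitory receptor for immunoglobulin G, had 0.24 ± 0.04 (SD, n = 3) in brain and 0.16 ± 0.04 (SD, n = 4) in thymus, at limma adjusted p = 0.846 and 0.853. It was above 0 in all mice of both organs but did not pass. C1qa, a complement subunit made by microglia, had 0.09 in brain and 0.07 in thymus, and passed in neither organ. Of the list around Src, Cbl, an adaptor and ubiquitin ligase, gave -0.02 in brain and Ptpra, a phosphatase, gave 0.02. The receptors Epha4 and Epha5, to which ephrins bind, gave 0.12 ± 0.32 (SD, n = 2) and 0.12 ± 0.06 (SD, n = 3) in brain.

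The synaptic vesicle list had 5 of 32 genes tested in brain, and all 5 were above 0 with a median of 0.13, where 50.5% of all probes were above 0. They include Nsf, the ATPase that takes apart used fusion complexes (0.13), Syp, a vesicle membrane protein (0.13), and Slc17a7, a vesicular glutamate transporter (0.13 in brain and -0.07 in thymus). The other 2, Syn1 and Syngr1, both gave 0.04. None of these passed by limma, and Syt1 itself stood at 0.02. Of the glycolysis list 4 of 31 were tested in brain, with values from -0.11 (Ldhc, the testis form of the enzyme) to 0.24 (Pfkm, a phosphofructokinase, SD 0.45). Ldha at 0.13 lay between them.

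As a description, the named probes whose ratios moved most like each target gene across the 6 brain arrays were ranked by Pearson's r among 1173 named probes with 6 values. The arrays come in dye-swapped pairs from 3 mice, so dye orientation and mouse are shared by all probes. Efnb1 was most like Hunk (r = 0.994), Klf4 most like Pitpna (r = 0.989) and Ldha most like Dkkl1 (r = 0.982). Src followed Mettl7b (r = 0.970), Syt1 followed Camk2b (r = 0.969), Csf1r followed Ddr2 (r = 0.969) and Mta2 followed Fbxo9 (r = 0.941). The highest r among so many probes is high by selection, and the 6 values of Efnb1 include the 0.76 of its uneven spot.

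The brain values of 6 of the 7 genes turned sign under at least 1 alternative. The mean of Klf4 stayed below 0 under all 15 alternatives, from -0.30 to -0.03, with no call, though not every mouse did. Ldha ran from -0.04 to 0.29, Efnb1 from -0.13 to 0.32, and Syt1 from -0.03 to 0.28. In the authors' deposited table, after centring each array on its median, Klf4 was at -0.15, Ldha at 0.25, Syt1 at 0.28, Efnb1 at -0.13, Src at 0.13 and Mta2 and Csf1r both at 0.10. Single mice also decided the sign of values near 0: without mouse 1, Csf1r was at -0.10, Src at 0.06 and Syt1 just below 0, and without mouse 2, Mta2 was at -0.04. No brain value of the 7 passed the threshold under any of these settings.

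**Figure D5:**
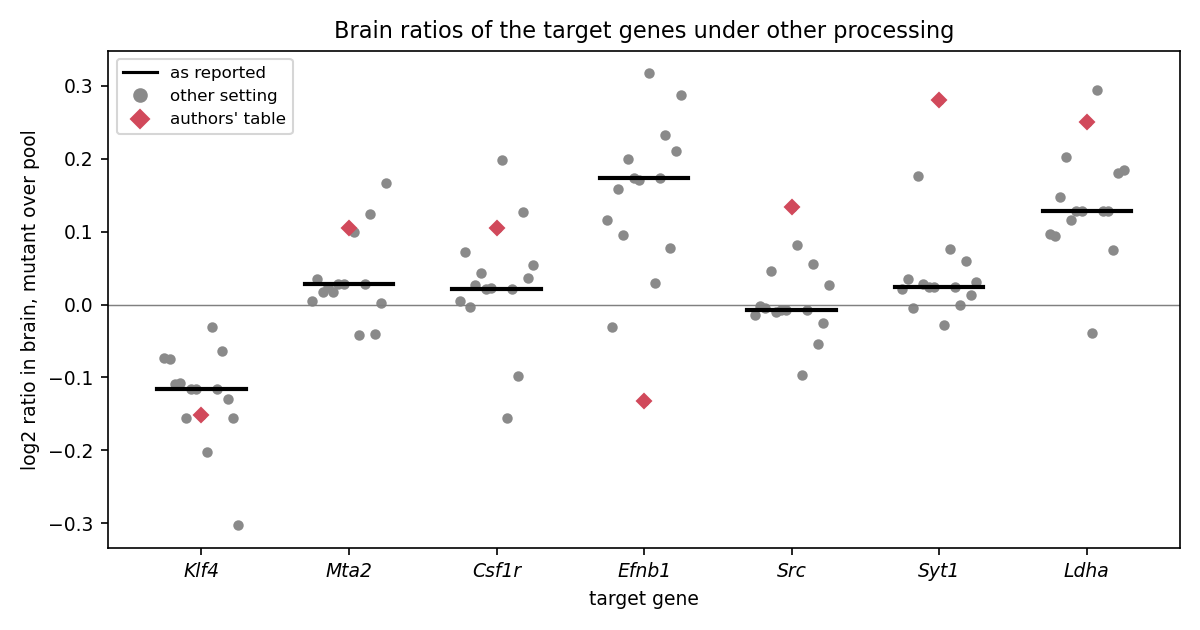
Mean log2 ratio of mutant over pool in brain for the 7 target genes as reported (black line), under each other setting (grey points) and from the authors' deposited table (red diamonds). The mean of Klf4 stays below 0 under every setting shown, and the other 6 genes cross 0 under at least 1.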

How the data were processed

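Spotted cDNA arrays with 2 colours were hybridised with 20 µg of labelled total RNA per mutant, per the labels' protocols. Deposited scanner files hold foreground and background intensity per spot and a flag, per the file headers, not normalised. Scanner and software were not given in the sources used here. Used only as an alternative, the authors' deposited value table (read as a score) equals log2 ratios of background-subtracted medians plus 1 constant per array. Its direction is mutant over pool, its column medians run from -1.37 to 0.86 and the origin of the constants is unknown.

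Foreground means were corrected with normexp (offset 50, which pulls dim ratios toward 0) and normalised by loess (span 0.3) in limma 3.58.1 under R 4.3.3. Flagged spots (flag -50) were left out. Every ratio was set as mutant over pool, duplicate spots were averaged, and both arrays of a mouse gave 1 value. Testing required detection on a share of 0.5 or more of the organ's arrays and values from at least 2 mice. Mouse values were tested against 0 with limma (lmFit, eBayes), and p-values were adjusted over every tested probe after Benjamini-Hochberg. The labels give each mouse its own identifier, so the replicates are animals. Identifiers of mice 3 and 4 have exchanged digits between labels and file names, in the same way in both organs, and the labels were used. No arrays held identical values.

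Klf4, Efnb1 and Ldha were named by mRNA accession and Mta2, Csf1r, Syt1 and Src by an EST accession listed as synonym in a RefSeq table (GRCm38.p6, used for names and microRNA sequences). Probe sequences were not used here, so signal from related transcripts was not tested. Mouse numbers pair the organs by animal. Deviations from organ means correlated at 0.03, -0.04 and -0.03 for mice 1, 2 and 3 over 1747 probes.

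The 7 genes and the pathway lists were chosen with earlier results of these data known. Named genes are the 7, in each list up to 4 genes that passed or, where none did, the 2 with the lowest p in each organ, and the probes most like each of the 7. Other list members were named after their values were seen, and of the like probes the first per gene is printed. Some list members are not reported here. The procedure was run on the measured values of these arrays after known changes were put into randomly picked probes. How many of these changes were called is not reported here. Alternatives covered background correction, foreground statistic, normalisation, filters, flags, dye orientation, the authors' table, left-out mice or arrays, and the mouse as a block.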

Additional observations from a re-analysis of the deposited data

Results flagged for a closer look

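Each set of 4 to 8 array values of a gene in an organ, 26 sets in all, was examined for a highest or lowest array far from the rest. Such an array was found in 7 sets. Independent, normally distributed values would pass the cut-off in about 1 of 20 sets. That rate need not hold here, since arrays are dye-swapped pairs and each gene enters by ratio and by intensity. The rate over all probes was not computed. Mta2 on thymus replicate 6 stood apart in ratio (log2 3.78) and in log2 intensity (9.59). Efnb1 on brain replicate 3 stood apart in ratio (log2 0.76) and in log2 intensity (7.43). Csf1r on thymus replicate 5 had a log2 intensity of 8.50, and Syt1 on thymus replicate 2 had 8.37. On these 4 spots the foreground mean exceeded the median by a larger factor than on any other spot of the 7 genes. The last was low: Syt1 on brain replicate 1 had a log2 intensity of 7.06, where the other brain arrays were at 8.17 to 8.73, with no such unevenness (a mean of 295 against a median of 292 in Cy5).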

How the results depend on the processing

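Of 284 values of the 7 genes under alternatives, 248 kept their sign and their side of the threshold, 34 turned sign and 2, both of Syt1 intensity, passed the threshold (2.02 without mouse 1, 1.60 with foreground medians). Sign changes of uncalled ratios near 0 have causes that were not tested.

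In brain, foreground medians put Efnb1 at -0.031, print-tip loess put Csf1r at -0.0030 and Syt1 at -0.0048, and median centring put Src at 0.046. The authors' table put Src at 0.13 and Efnb1 at -0.13, and normexp without offset put Src at 0.026. With the mutant in Cy3 only, Syt1 was at -0.029, Src at 0.081 and Ldha at -0.039, and with the mutant in Cy5 only, Mta2 was at -0.042 and Csf1r at -0.16. Leaving out a mouse gave ranges of -0.040 to 0.12 for Mta2, -0.098 to 0.13 for Csf1r, -0.00084 to 0.060 for Syt1 and -0.054 to 0.056 for Src.

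In thymus, foreground medians put Mta2 at -0.048 and its difference between organs at 0.083. Median centring put Csf1r at 0.11 and Ldha at 0.036, and the organ difference of Csf1r at -0.080. The authors' table put Ldha at 0.090. The mutant in Cy3 only put Csf1r at 0.10, and the mutant in Cy5 only put Mta2 at -0.33, Ldha at 0.21 and the organ difference of Mta2 at 0.29. Leaving out a mouse or array gave -0.18 to 0.017 for Ldha and -0.17 to -0.021 for Csf1r.

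For intensity, Klf4 turned to 0.15 and Src to -0.051 with the mouse as a block, Klf4 to 0.038 in the pool channel only, and Efnb1 to 0.23 with flagged spots kept. Leaving out a mouse or array gave -0.18 to 0.075 for Klf4 and -0.47 to 0.029 for Csf1r.

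Counts of probes past the threshold over the whole array were 0 in brain ratios and 1 with foreground medians, with the mutant in Cy3 only and with the mutant in Cy5 only. For the organ difference of ratios the count was 0, and 1 with foreground medians. For intensity it was 210, 130 without background subtraction, 316 with foreground medians, 3 with the mouse as a replicate block, and 10 to 273 when a mouse or array was left out. The block changed no call of the 7 genes. Foreground medians for intensity, normexp without offset, flagged spots kept for intensity and left-out arrays were chosen after seeing the data. Signal over background limits Klf4, Src, Efnb1 and Syt1 in thymus, which were not tested there.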
